A study of Homo sapiens with 16 samples.

Results

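The 45 genes described here encode receptors and ligands of axon guidance, and all 45 were found among the 20083 protein-coding genes of chromosomes 1 to 22 and X in the GENCODE annotation of hg19. They comprised 27 receptors and 18 ligands. The receptors were 14 Eph receptors (9 EPHA and 5 EPHB genes), 3 ROBO genes, 4 UNC5 genes with DCC, and 3 plexin A genes with NRP1 and NRP2. The ligands were 7 ephrins, 7 class 3 semaphorins, 3 SLIT genes and NTN1. Members were taken from a list of gene names.

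The histone marks H3K27me3 and H3K4me1 were profiled by CUT&Tag, in which an antibody directs a transposase to tag the DNA beside a mark, in BE2C cells, a human neuroblastoma line with amplified MYCN. In the knockdown experiment, cells transfected with siKDM6B33, an siRNA against the H3K27 demethylase KDM6B, were compared with cells transfected with siCtrl, both for 72 h. In the compound experiment, cells exposed to 2.5 µM GSKJ4 (GSK-J4, a cell-permeable prodrug of a KDM6 inhibitor) were compared with cells in 0.1% DMSO, also for 72 h. Each of the 8 groups had 2 replicates, which gave 16 libraries. The knockdown used 1 siRNA in 1 cell line, and the experiments had separate controls.

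H3K27me3 is laid down by Polycomb repressive complex 2 and is associated with silent genes, whereas H3K4me1 marks enhancers and the flanks of active or poised promoters. Ephrins signal to Eph receptors at cell contacts, class 3 semaphorins bind neuropilins that signal through plexin A, SLIT proteins bind ROBO receptors, and netrin-1 signals through DCC and UNC5 receptors. These systems steer growing axons and migrating neural crest cells, the lineage from which neuroblastoma arises.

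Coverage was the percentage of a gene window, the gene body with 5 kb on each side, that lay within broad regions of the mark (islands). Narrow peaks were counted when their centre lay in the window. The median member gene was 158.8 kb long, against 27.2 kb for all genes, so a given percentage meant more covered sequence in the members. Shares of genes with any island in the window were not matched for this length. With 2 libraries against 2, an exact permutation test cannot give a p below 0.333. Groups are therefore described as not overlapping when both treated libraries were above, or below, both controls. Each count is read against the percentage of all genes that did the same. That percentage includes genes with equal values in all libraries compared, which cannot differ.

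Libraries held 7175 to 24917 islands covering 53.7 to 114.6 Mb, and 29752 to 131341 narrow peaks whose median summit was 3 to 9 tags. Islands and peaks are thresholded calls, so a low level of a mark could not be told from none. The H3K27me3 libraries covered more of the genome after knockdown, at 89.8 and 87.3 Mb against 53.7 and 54.2 Mb. H3K4me1 islands covered 114.6 and 114.4 Mb in siKDM6B33 against 103 and 98.6 Mb in siCtrl libraries. In these H3K4me1 libraries 5.11% and 5.20% of peaks had summits of 3 tags or fewer, against 24.95% and 25.6%. GSKJ4 replicate 1 for H3K27me3 stood apart, with 16676 islands of 3000 bp median width against 7175 to 8006 islands of 6600 to 7400 bp in the rest of its experiment. The adrenergic neuroblastoma markers PHOX2A, HAND2, GATA3, ISL1, TH and DBH carried H3K4me1 in every library, whereas PTPRC, KRT5, CDH1 and ALB, markers of other tissues, had no H3K4me1 island in any. Another marker of other tissues, the blood factor SPI1, had 14.8% and 9.47% H3K4me1 coverage in siCtrl, none in siKDM6B33 cells, and 8.31% to 17.2% in the compound experiment. At KDM6B itself H3K4me1 coverage was 67.4% and 70.0% in siCtrl and 88.7% in both siKDM6B33 libraries (limma adjusted p = 0.00736). The marks do not measure its transcript, so the knockdown was not checked here.

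The H3K27me3 libraries of the compound experiment differed in kind from those of the knockdown experiment. In the member windows, 75.8% and 71.4% of the H3K27me3 island length of the DMSO libraries, and 83.6% and 74.0% of that of the GSKJ4 libraries, lay inside H3K4me1 islands of the same treatment. The shares were 16.8% and 19.7% in siCtrl and 27.7% and 26.0% in siKDM6B33 cells. Across all chromosomes they were 46.9% to 62.7% for DMSO and GSKJ4 libraries, against 7.81% to 10.1% for siCtrl and siKDM6B33 libraries. TH, the rate-limiting enzyme of catecholamine synthesis in these cells, was covered by H3K27me3 over 94.4% to 100% of its window in the compound experiment and over 0%, 0%, 22.4% and 0% in the knockdown experiment. Whether the difference lies in the cells or in the libraries cannot be told apart, since each experiment was run with its own samples. Levels of H3K27me3 are therefore given by experiment.

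**Figure D1:**
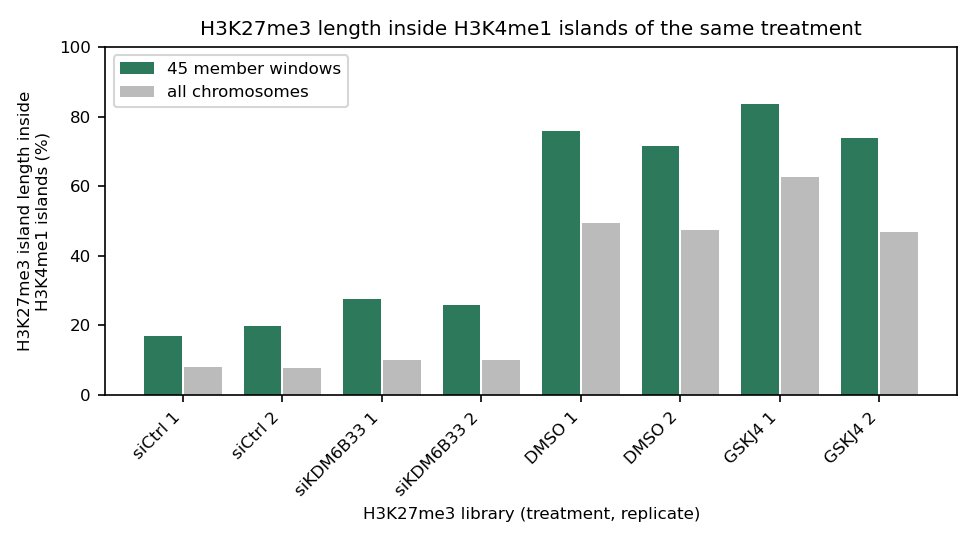
Share of H3K27me3 island length, in percent, that lay inside H3K4me1 islands of the same treatment, for each H3K27me3 library, in the 45 member windows (green bars) and on all chromosomes (grey bars). The member bars reach 71.4% to 83.6% in the DMSO and GSKJ4 libraries and 16.8% to 27.7% in the siCtrl and siKDM6B33 libraries.

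The 250 bases before the annotated 5′ end of 3 members are shown, with every CpG in capitals, because these genes carried patterns that recur below. They were chosen after the values were seen. H3K4me1 fell over the windows of EPHA8 and SEMA3G after knockdown, and ROBO3 had both marks. SEMA3G had no H3K4me1 island within 1 kb of its start in any library. In siCtrl the H3K4me1 islands of ROBO3 began 9.87 and 10.1 kb past the canonical start.
EPHA8, chr1:22889732-22889981, plus strand: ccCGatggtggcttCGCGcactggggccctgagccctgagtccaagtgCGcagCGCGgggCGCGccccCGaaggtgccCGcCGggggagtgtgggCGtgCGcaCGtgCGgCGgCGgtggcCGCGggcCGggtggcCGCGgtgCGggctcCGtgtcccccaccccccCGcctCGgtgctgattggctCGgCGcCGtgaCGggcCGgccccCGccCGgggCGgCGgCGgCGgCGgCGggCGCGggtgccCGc
ROBO3, chr11:124735078-124735327, plus strand: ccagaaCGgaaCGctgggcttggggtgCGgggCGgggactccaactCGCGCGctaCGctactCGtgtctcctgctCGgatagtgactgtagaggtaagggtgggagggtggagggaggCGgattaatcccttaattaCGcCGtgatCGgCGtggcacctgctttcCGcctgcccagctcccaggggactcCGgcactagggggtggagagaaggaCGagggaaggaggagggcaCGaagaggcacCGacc
SEMA3G, chr3:52479120-52479369, minus strand: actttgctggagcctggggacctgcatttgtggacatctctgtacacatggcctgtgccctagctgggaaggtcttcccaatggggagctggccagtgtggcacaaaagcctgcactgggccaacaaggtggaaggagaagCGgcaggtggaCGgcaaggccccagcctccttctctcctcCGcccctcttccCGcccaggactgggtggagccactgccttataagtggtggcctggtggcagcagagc
The EPHA8 and ROBO3 sequences held 42 and 20 CpG, and the SEMA3G sequence held 4. The median was 20 CpG for the members and 14 for all genes, and 82.2% of members had at least 10 against 60.5% of all genes. An H3K4me1 island at a start in all 8 libraries was found in 14 members (31.1%, against 12.9% of all genes). All 14 had at least 10 CpG, as did 10 of the 11 with an H3K27me3 island at a start in all 8. The bases counted lie before the outermost annotated 5′ end, whereas a start could be any annotated one. The CpG share of all genes with such islands was not counted.

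No H3K27me3 island was found in any of 8 libraries in 15.6% of the members and 53.4% of all genes, without matching for gene length. Of the class 3 semaphorins, which are mostly repellents, SEMA3A, SEMA3B, SEMA3C, SEMA3D, SEMA3E and SEMA3G had none, nor had EPHB6, a kinase-defective Eph receptor. SEMA3F was the exception, with 2.97% to 6.15% coverage in the knockdown experiment and 23.2% to 34.1% in the compound experiment. NTN1, SLIT2, EFNA2 and EFNA3 carried an H3K27me3 island within 1 kb of a start in all 8 libraries. EFNA3 was covered over 33.2% to 40.6% of its window in the knockdown experiment and 49.2% to 70.7% in the compound experiment.

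Among receptors, EPHA4, EPHA7, EPHA10, EPHB1, EPHB4, ROBO3 and NRP2 also had an H3K27me3 island at a start in all 8 libraries, which made 11 members in all (24.4%, against 9.48% of all genes). ROBO3, which modulates midline crossing, had the highest mean coverage of H3K27me3, at 62.5% and 59.4% in siCtrl, 67.1% and 62.5% in siKDM6B33, 73.0% and 76.8% in DMSO and 55.3% and 70.7% in GSKJ4 libraries. In siCtrl the islands reached 20 and 19 member starts (44.4% and 42.2%), against 16.9% of the starts of all genes in each library. Of these members, 19 had the start island in all 4 libraries of the knockdown experiment (42.2%, against 14.8% of all genes).

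A further 11 members had no H3K27me3 island in the 4 knockdown libraries and one in all 4 compound libraries, which was 24.4% of members and 7.59% of all genes. They were SLIT3, EFNA1, EFNA4, EFNB2, EPHB2, EPHB3, UNC5A, UNC5B, UNC5C, PLXNA1 and PLXNA4, and no member showed the opposite, which 2.56% of all genes did. UNC5B, a netrin receptor, was covered by H3K27me3 over 66.3% and 74.0% in DMSO and 65.9% and 74.0% in GSKJ4 libraries. PLXNA1, a semaphorin co-receptor, was covered over 73.9%, 73.6%, 79.1% and 76.0% in the same order. The median H3K4me1 coverage of these 11 genes was 58.2% in siCtrl. This grouping was made after the values were seen. EPHA1, like SEMA3F, had an H3K27me3 island in all 8 libraries but not at a start in all. The remaining 14 members, among them DCC, ROBO1, ROBO2, UNC5D and NRP1, had an H3K27me3 island in some of the 8 libraries.

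H3K4me1 was broadest over PLXNA1, UNC5A, EPHB3 and UNC5B, with mean coverage over 8 libraries of 81.4%, 81.1%, 78.0% and 77.2%. EFNA3, EFNA4 and EFNA1, which lie close together on chromosome 1, followed at 73.7%, 65.4% and 62.1%, and EFNB3 at 39.4%. The windows of EFNA3 and EFNA4 share sequence and are not independent. In UNC5B 1 island of 59.2 to 65.0 kb ran through the gene body in the knockdown experiment, and the widest was 45.4 to 46.8 kb in the compound experiment. SEMA3B, NTN1, EPHA3, EPHB6 and UNC5D had no H3K4me1 island in any library (11.1%, against 28.8% of all genes). At EFNA2, EFNA3, EPHB4, ROBO3 and NRP2 both marks had an island at a start in every library of the knockdown experiment. In every library of the compound experiment 12 members had both. The share of all genes with both was not counted. In all, 29 members carried H3K4me1 in all 8 libraries (64.4%, against 27.7% of all genes), again without matching for gene length.

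**Figure D2:**
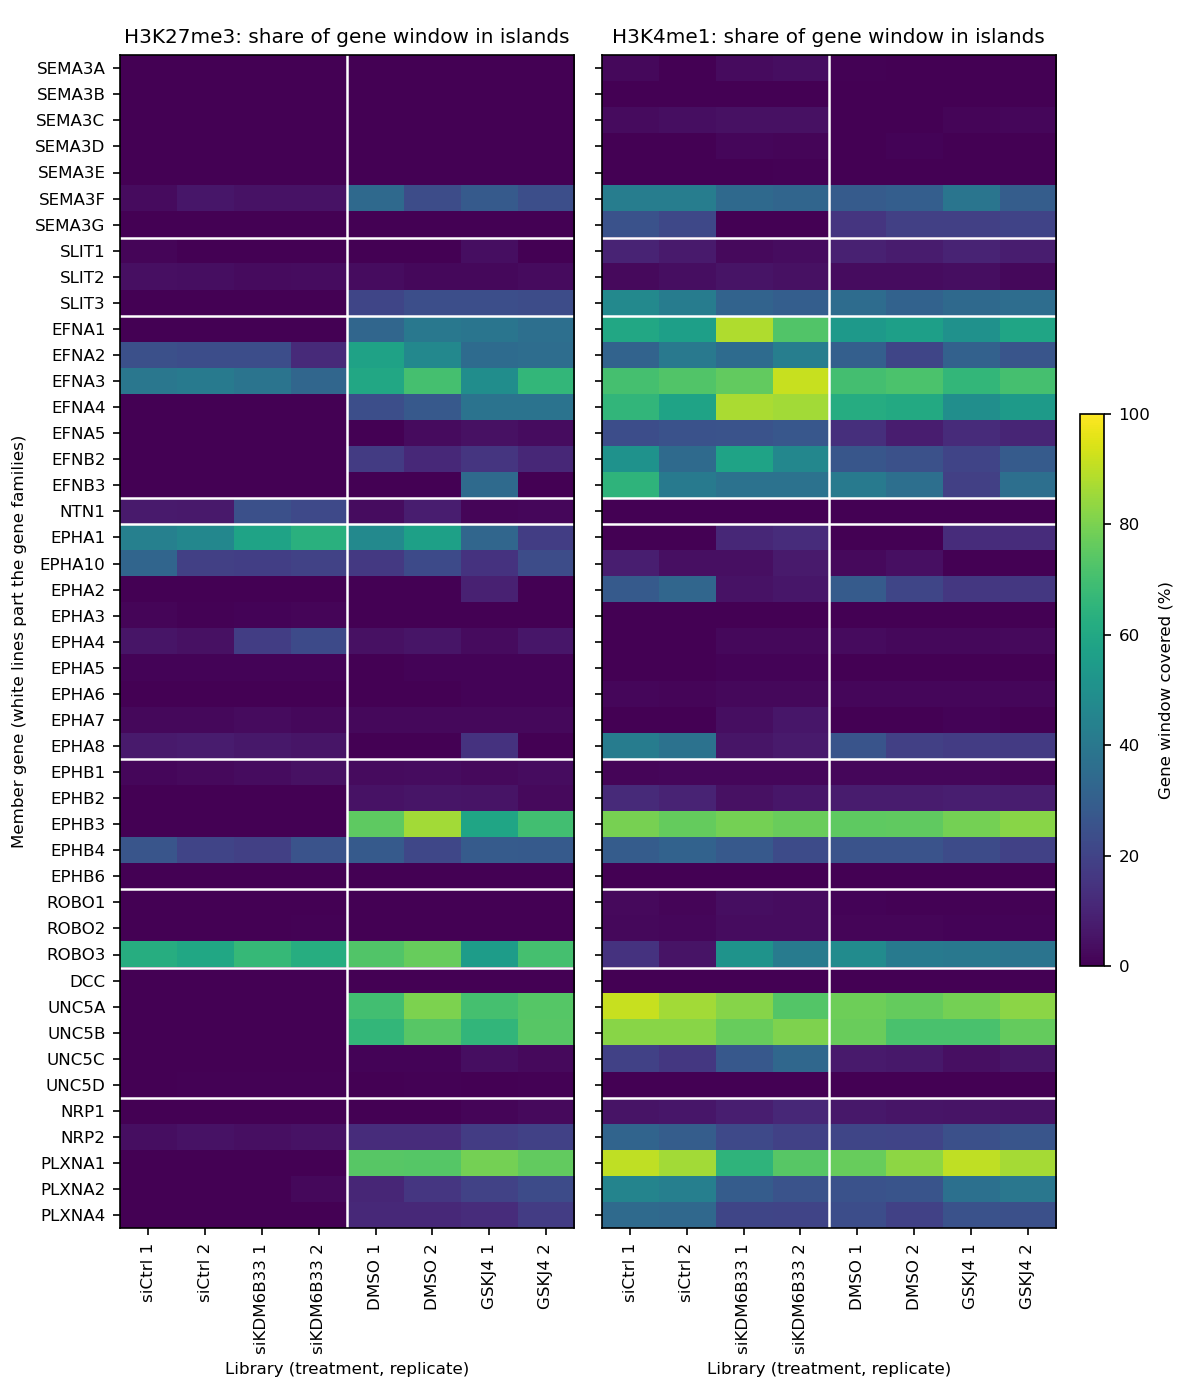
Percentage of each member's gene window covered by islands of H3K27me3 (left) and H3K4me1 (right) in every library, with genes grouped by family. SEMA3A to SEMA3E and EPHB6 are at 0 for H3K27me3, PLXNA1 and UNC5B are at 0 in the first 4 libraries and at 65.9% to 79.1% in the last 4, and ROBO3 is at 55.3% to 76.8% throughout.

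After KDM6B knockdown, H3K27me3 spread over NTN1, the netrin ligand, and was also broader over EPHA4, an Eph receptor that binds both ephrin classes. NTN1 coverage was 7.23% and 6.87% in siCtrl and 24.6% and 22.1% in siKDM6B33 libraries, a difference of 16.3 percentage points (SE 1.81, limma adjusted p = 0.0397). Its islands numbered 3 and 4 in siCtrl and 12 and 8 in siKDM6B33 libraries, and the start was fully covered in all 4, so the added islands lay along the gene body. EPHA4 coverage was 5.54% and 4.45% in siCtrl and 18.3% and 22.5% in siKDM6B33 libraries, with 2 and 1 against 5 and 7 islands, and it did not pass the test (difference 15.4 points, SE 2.19, limma adjusted p = 0.0542). Together these genes held 26.0 and 23.4 kb of H3K27me3 in siCtrl and 87.6 and 88.7 kb in siKDM6B33 libraries, whereas the other 43 members held 130.2 and 123.2 kb against 129.7 and 145.7 kb. This sum, and the genes drawn in the island maps, were chosen after the values were seen.

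The NTN1 result depended on how much of the genome was called. When each library was reduced to an equal covered length, highest island score first, the NTN1 difference was 2.49 points (limma adjusted p = 0.183) and that of EPHA4 6.36 points. In that setting limma called 0 members higher and 2 lower (EPHA8 and EFNA2), and over all genes 108 higher and 628 lower, against 367 and 67 with the islands as called. Without siCtrl replicate 1 or 2 limma called 0 of all genes, and NTN1 had adjusted p = 0.192 and 0.183 with differences of 16.5 and 16.1 points. Without siKDM6B33 replicate 1, 2 members were called, beside 654 genes higher and 26 lower.

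**Figure D3:**
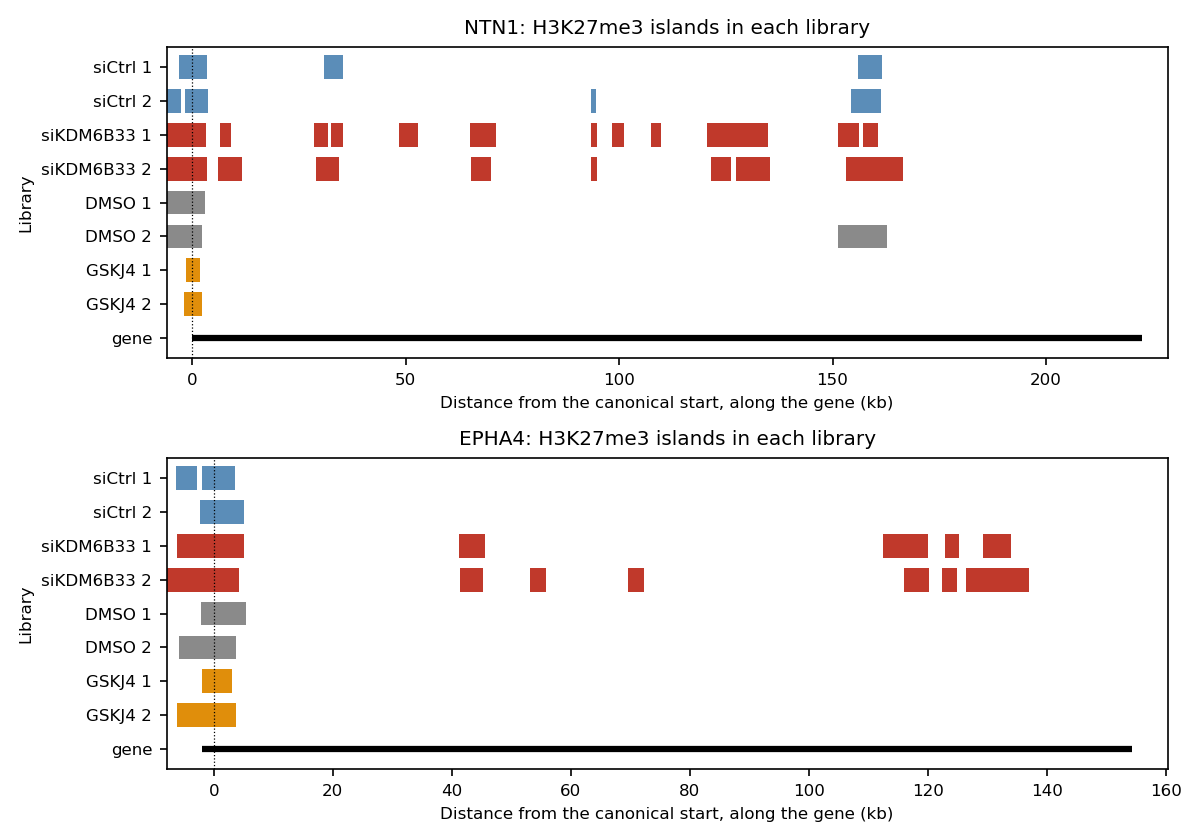
H3K27me3 islands of each library along NTN1 (top) and EPHA4 (bottom), with distance from the canonical start in kb and the gene as a black line. The siKDM6B33 libraries have 12 and 8 islands on NTN1 and 5 and 7 on EPHA4, against 3 and 4, and 2 and 1, in siCtrl.

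EPHA1 coverage by H3K27me3 was 43.4% and 46.2% in siCtrl and 57.9% and 63.5% in siKDM6B33 libraries (limma adjusted p = 0.0981), but within the gene body alone the difference was 2.15 points against 15.9 for the window. In total 5 members were higher (NTN1, EPHA1, EPHA4, EPHB1 and ROBO2) and 4 lower (SLIT2, EFNA3, EPHA6 and EPHA8) without overlap, where 10.0% and 3.26% of all genes were. Limma called 1 of 22 members with unequal values, where it called 6.53% of 5616 genes higher and 1.19% lower. Both shares of members called higher were close to those of all genes, but the share without overlap counts genes with equal values. Those were 23 members and 14467 of all genes. At an unadjusted p under 0.05 limma had 3 of 22 members (13.6%), against 24.3% of genes. No member gained or lost an H3K27me3 start island, and 1.3% and 0.453% of all genes did. Narrow peaks were higher in 4 members and lower in 2, where 10.1% and 3.91% of genes were, and limma called 0 members and 0 genes (0% in each direction), with 2 of 40 members (5%) and 12.9% of genes at an unadjusted p under 0.05. Leaving out siCtrl replicate 1 gave 3 calls, beside 886 genes higher and 1357 lower. Leaving out siKDM6B33 replicate 1 or 2 gave 5 calls each, beside 2312 and 2286 genes higher and 539 and 554 lower.

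In H3K27me3 after GSKJ4, 7 members and 12359 of 20083 genes had equal values in all 4 libraries and could not differ. Coverage was higher in 10 members and lower in 6, where 5.53% and 4.04% of all genes were higher and lower without overlap. None passed limma, which called 0 of 7724 genes (0%), and 1 of 38 members, EPHA1, had an unadjusted p under 0.05 (2.63%, against 5.40% of genes). EPHA1 coverage was 46.9% and 56.7% in DMSO and 32.9% and 18.2% in GSKJ4 libraries (difference -26.3 points, SE 7.97, limma adjusted p = 0.746). NTN1, which was higher after knockdown, was lower here, at 3.43% and 8.08% in DMSO and 1.38% and 1.89% in GSKJ4 libraries. EFNA2 was at 57.6% and 46.7% against 34.9% and 35.7%, and EPHB3, which mediates repulsion by B-class ephrins, at 75.1% and 86.2% against 58.8% and 69.9%. The narrow peaks of H3K27me3 on EPHB3 went the other way, with 4 and 3 in DMSO and 9 and 7 in GSKJ4 libraries.

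The semaphorin receptors NRP1, NRP2, PLXNA1, PLXNA2 and PLXNA4 were all among the 10 members that were higher without overlap. This family was singled out after the values were seen. At an equal number of islands only 4 members in all were higher, so not all of these receptors stayed so. In GSKJ4 libraries 96.1% and 99.6% of this H3K27me3 on PLXNA1, and 87.3% and 75.7% of that on PLXNA2, lay inside H3K4me1 islands, and H3K4me1 coverage of both genes was higher too (36.8% and 39.5% against 25% and 25.9% on PLXNA2). The part of these values in the result was not tested. NRP2 was at 12.7% and 12.8% in DMSO and 17.8% and 19.5% in GSKJ4 libraries, and PLXNA2 at 10.7% and 15.9% against 19.6% and 23%. PLXNA2 was the 1 member with a start island in both GSKJ4 libraries and neither DMSO library, as were 0.871% of all genes. EFNA4 was at 24.0% and 27.8% against 37.9% in both GSKJ4 libraries, but its difference of 12 points became -6.95 points at an equal number of islands. At that setting 4 members were higher and 10 lower, and of all genes 2.42% were higher and 5.29% lower. Narrow peaks of H3K27me3 were higher in 17 members and lower in 0, where 15.3% and 2.30% of genes were, with 0 members or genes past limma (0%) and 7 of 42 members at an unadjusted p under 0.05 (16.7%, against 13.1% of genes). At an equal number of peaks the counts were 10 and 2, and the shares of all genes 6.44% and 6.09%. Without GSKJ4 replicate 1, the library that stood apart, 13 members were higher and 8 lower in coverage (12.7% and 5.44% of all genes). In peaks 21 were higher and 4 lower (22.8% and 8.81% of all genes), and limma then called 4 members and 1739 genes higher and 596 genes lower. Without GSKJ4 replicate 2, 18 members were higher and 12 lower in coverage (17.3% and 11.4% of all genes), with 11 limma calls beside 2402 genes higher and 241 lower. In peaks 31 were then higher (38.2% of all genes), with 6 limma calls beside 3158 genes higher and 366 lower. Without DMSO replicate 1, 12 were lower in coverage (9.14% of all genes). Leaving out a library thus moved all genes along with the members.

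The largest shifts among the members were in H3K4me1 after KDM6B knockdown, and they went both ways. The siKDM6B33 libraries also covered more of the genome than siCtrl, and the part of this in the shifts was not tested. Coverage was higher in 20 members and lower in 15 without overlap, where 46.4% of all genes were higher and 9.65% lower. At an equal covered length 15 members were higher and 15 lower (38.8% and 11.8% of all genes). Limma called 11 of 40 members higher and 11 lower (27.5% each), where it called 47.9% of 13990 genes higher and 6.88% lower. Among genes with a mean coverage of at least 5%, it called 4 members higher and 11 lower, and 3770 and 724 genes. The share of members higher without overlap, 44.4%, was close to that of all genes. It counts genes with equal values, which cannot differ: 5 members and 6093 of all genes. Limma left these out, and its share of gains was smaller in members. The shares of losses were larger by both rules. The difference between members and all genes was not tested. The median difference was 0.25 points for members and 1.06 for all genes. Receptors (8 higher, 7 lower) and ligands (3 higher, 4 lower) both had calls in each direction.

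Among the receptors that fell was EPHA8, at 41.9% and 37.5% in siCtrl and 5.59% and 7.18% in siKDM6B33 libraries (difference -33.3 points, SE 2.17, limma adjusted p = 0.00449). Outside 1 kb of a start its siCtrl libraries were the high ones of the 8, at 40.7% and 37.8%. DMSO and GSKJ4 libraries had 16.5% to 25.3% there, and siKDM6B33 libraries 5.83% and 7.50%. EPHA8 was also the 1 member that lost its H3K4me1 start island, as did 0.732% of all genes, while its H3K27me3 start island was present in all 4 libraries of this experiment. EPHA2, an ephrin-A receptor expressed in many epithelia and tumours, was at 28.3% and 33.1% against 4.79% and 6.23% (adjusted p = 0.00769 by limma). The semaphorin receptors PLXNA1, PLXNA2, PLXNA4 and NRP2 fell too, but for PLXNA2, PLXNA4 and NRP2 the siCtrl libraries were the high ones of the 8. PLXNA2 was at 45% and 43% against 29.3% and 25.6%, and PLXNA1 at 90.3% and 85.9% against 64.9% and 73.9% (limma adjusted p = 0.0156 and 0.0476). In DMSO libraries PLXNA2 was at 25% and 25.9%, PLXNA4 at 23.5% and 19.5%, and NRP2 at 20.8% and 20.5%, near their siKDM6B33 values. EPHB2 fell from 12% and 9.88% to 4.53% and 6.16%.

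The ligands that fell were SEMA3G, SEMA3F, SLIT1 and SLIT3. EFNB3, a transmembrane ephrin, was at 64.9% and 41.4% in siCtrl and 37.7% in both siKDM6B33 libraries, lower without overlap, and did not pass (limma adjusted p = 0.280). SEMA3G was at 25.4% and 21.8% in siCtrl and had no H3K4me1 island in either siKDM6B33 library (limma adjusted p = 0.00488). SLIT3, whose window is 649 kb long, held 306.5 and 273.9 kb of H3K4me1 in siCtrl and 206.1 and 192.9 kb in siKDM6B33 libraries (limma adjusted p = 0.0314). SLIT1 was at 9.80% and 7.07% against 2.63% and 3.23%. For SLIT3, SEMA3F and the receptor EPHB2 the siCtrl libraries were the high ones of the 8, and SLIT3 held 203.9 to 233.1 kb in DMSO and GSKJ4 libraries. SEMA3G was also highest in siCtrl, at 27.9% and 23.9% outside 1 kb of its start. DMSO and GSKJ4 libraries had 16.9% to 21.9% there.

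Among the genes that rose, ROBO3 changed most, from 14.6% and 5.38% in siCtrl to 51.5% and 41.5% in siKDM6B33 libraries (difference 36.5 points, SE 5.79, limma adjusted p = 0.0222). Its DMSO and GSKJ4 libraries, at 38.4% to 48.4%, were near the siKDM6B33 values, so the siCtrl libraries were the low ones of the 8. EFNA4 rose from 65.8% and 58.2% to 87.2% and 86.0% (limma adjusted p = 0.0181), and UNC5C, a repulsive netrin receptor, from 19.4% and 16.1% to 27.4% and 33.3% (limma adjusted p = 0.0489). EPHA1 went from 0% in both siCtrl libraries to 11.3% and 12.7%, but its islands lay beyond the 3′ end, and within the gene body the difference was 0.

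Smaller absolute gains passed the test in EPHA4, EPHA5, EPHA6, EPHA7, ROBO2, SEMA3D and SEMA3E. On SEMA3E siKDM6B33 replicate 1 had H3K4me1 only within 1 kb of a start (38.6% covered). Replicate 2 had it only in the rest of the window (0.545%), so they shared no position. EPHA4 was at 0% in both siCtrl libraries, 2.05% and 2.29% in siKDM6B33 and 2.05% to 2.89% in DMSO and GSKJ4 libraries, so siCtrl was the low group, and EPHA7 at 0% against 3.80% and 6.12%. EFNA1 (59.9% and 56.4% against 88% and 72.7%), EFNA3 (70.7% and 72.8% against 76.0% and 91.4%) and NRP1 (5.33% and 6.04% against 8.53% and 11%) were higher without overlap and did not pass.

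These calls leaned on very close replicates. The fit had 2 residual and 0.865 prior degrees of freedom, and 8 of the 22 members called had equal values in both libraries of at least 1 group, often 0 (EPHA1, EPHA4, EPHA5, EPHA7, SEMA3D, SEMA3E, SEMA3F and SEMA3G), as had 66.2% of all genes called. Leaving out 1 library at a time left 2 to 11 calls, with 4 without siCtrl replicate 1, 2 without siCtrl replicate 2 and 11 without either siKDM6B33 library. The genes called moved too, to 1148 higher and 361 lower without siCtrl replicate 1, 917 and 323 without siCtrl replicate 2, and 6470 to 6481 and 588 to 592 without either siKDM6B33 library, from 6699 and 962.

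**Figure D4:**
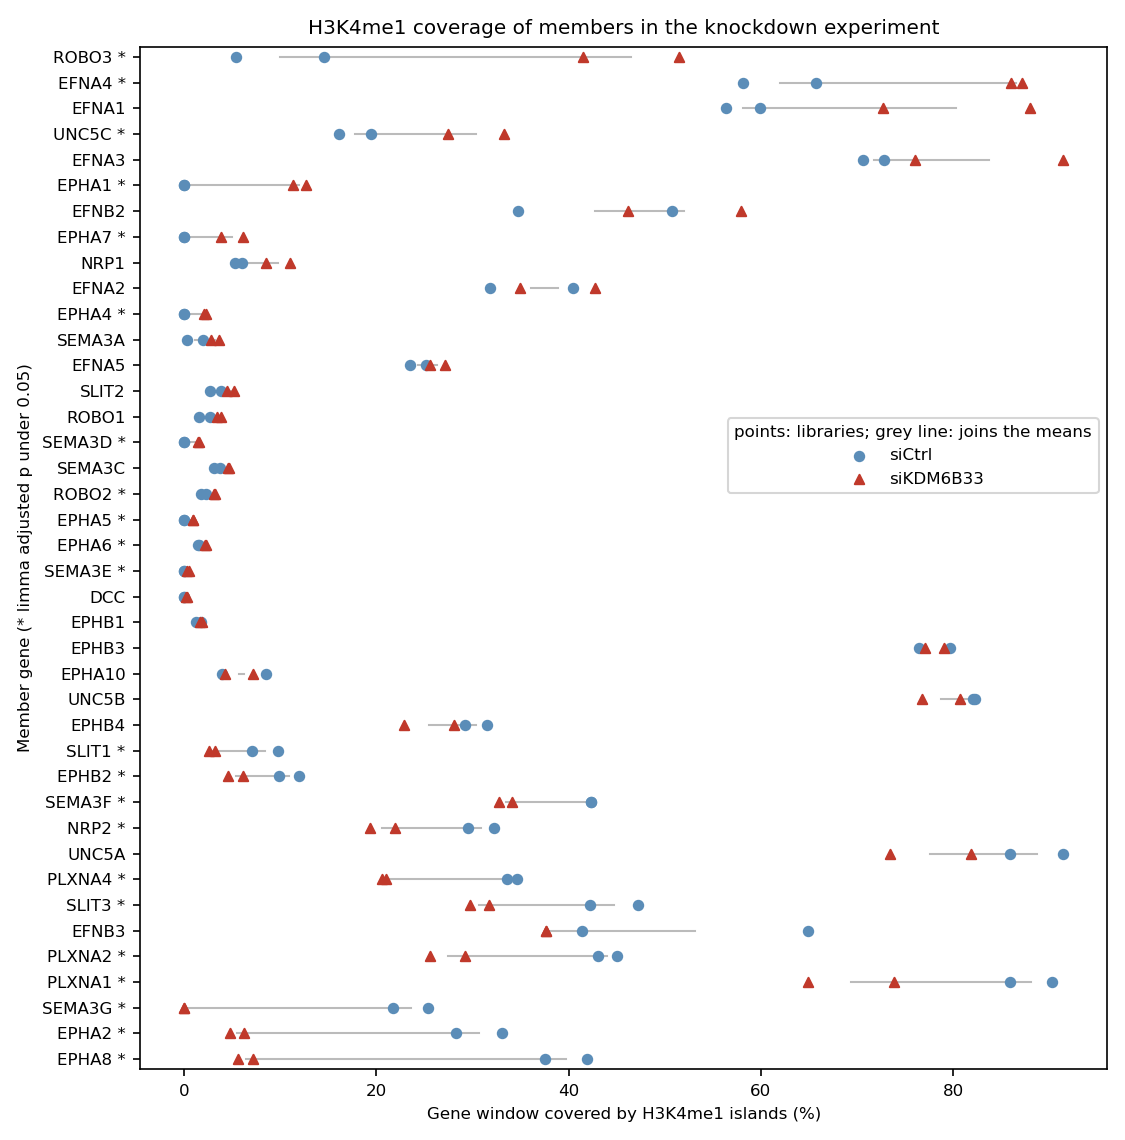
H3K4me1 coverage of each member window, in percent, in the siCtrl libraries (blue circles) and the siKDM6B33 libraries (red triangles), ordered by difference, for the members whose values were not all equal in those 4 libraries. A grey line joins the group means and an asterisk marks a limma adjusted p under 0.05. ROBO3 is at the top, with siKDM6B33 values of 51.5% and 41.5%, and EPHA8 at the bottom, with 5.59% and 7.18%.

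H3K4me1 was also measured apart near starts and in the rest of the windows. Within 1 kb of a start, 16 members were higher and 1 lower, where 41% and 1.93% of the 19732 genes with a start in the annotation used were. In the rest of the window 19 were higher and 16 lower (42.2% and 35.6%), where 40.9% and 10.8% of all genes were. The members' shares of gains were thus close to those of all genes in both parts, with genes of equal values counted. Of the members, 11 were higher in both parts. Summed over members, H3K4me1 near starts was 49.7 and 51.6 kb in siCtrl and 86.2 and 87.3 kb in siKDM6B33 libraries, and in the rest of the windows 1306 and 1190 kb against 1088 and 1093 kb. EPHA2, EPHA10 and EPHB2 were higher near the start and lower elsewhere. In EPHA2, near-start coverage was 0% and 31.8% in siCtrl against 51.8% and 61.8% in siKDM6B33 libraries, and coverage of the rest was 29.7% and 33.1% against 2.42% and 3.43%. This split was made after the values were seen.

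An H3K4me1 start island was gained in both siKDM6B33 libraries, with none in siCtrl, at SEMA3A, SEMA3D, EPHA4, EPHA5, EPHA6, EPHA7, EPHA10, EPHB2 and ROBO2. They were 9 of the 18 members with no start island in either siCtrl library (50%), and 41.5% of all genes with none gained one. Of the 9, EPHA4, EPHA5, EPHA6, EPHA7, EPHA10 and ROBO2 had an H3K27me3 start island in all 4 libraries of the experiment (66.7%, against 16.4% of all genes that gained an H3K4me1 start island, and against 11 of the 18 members with none in siCtrl). Starts with an H3K4me1 island went from 23 and 25 to 36 and 35 of 45 members, and from 26.1% and 26.5% to 58.4% and 58.3% of all genes. Narrow peaks were higher in 15 members and lower in 12, where 36.3% and 11% of genes were. Limma called 4 of 41 higher (SEMA3A, EPHA4, EPHA7 and UNC5C) and 5 lower (SLIT1, EPHA1, EPHA8, PLXNA2 and PLXNA4), where it called 8.48% and 2.09% of genes. Of these 9 calls, 6 had equal counts in at least 1 group and 4 in both, for instance EPHA4 (0 and 0 against 8 and 8) and EPHA1 (1 and 1 against 0 and 0). Without any 1 library, limma called 5 members, beside 1878 to 2204 genes higher and 321 to 983 lower, from 1382 and 341.

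**Figure D5:**
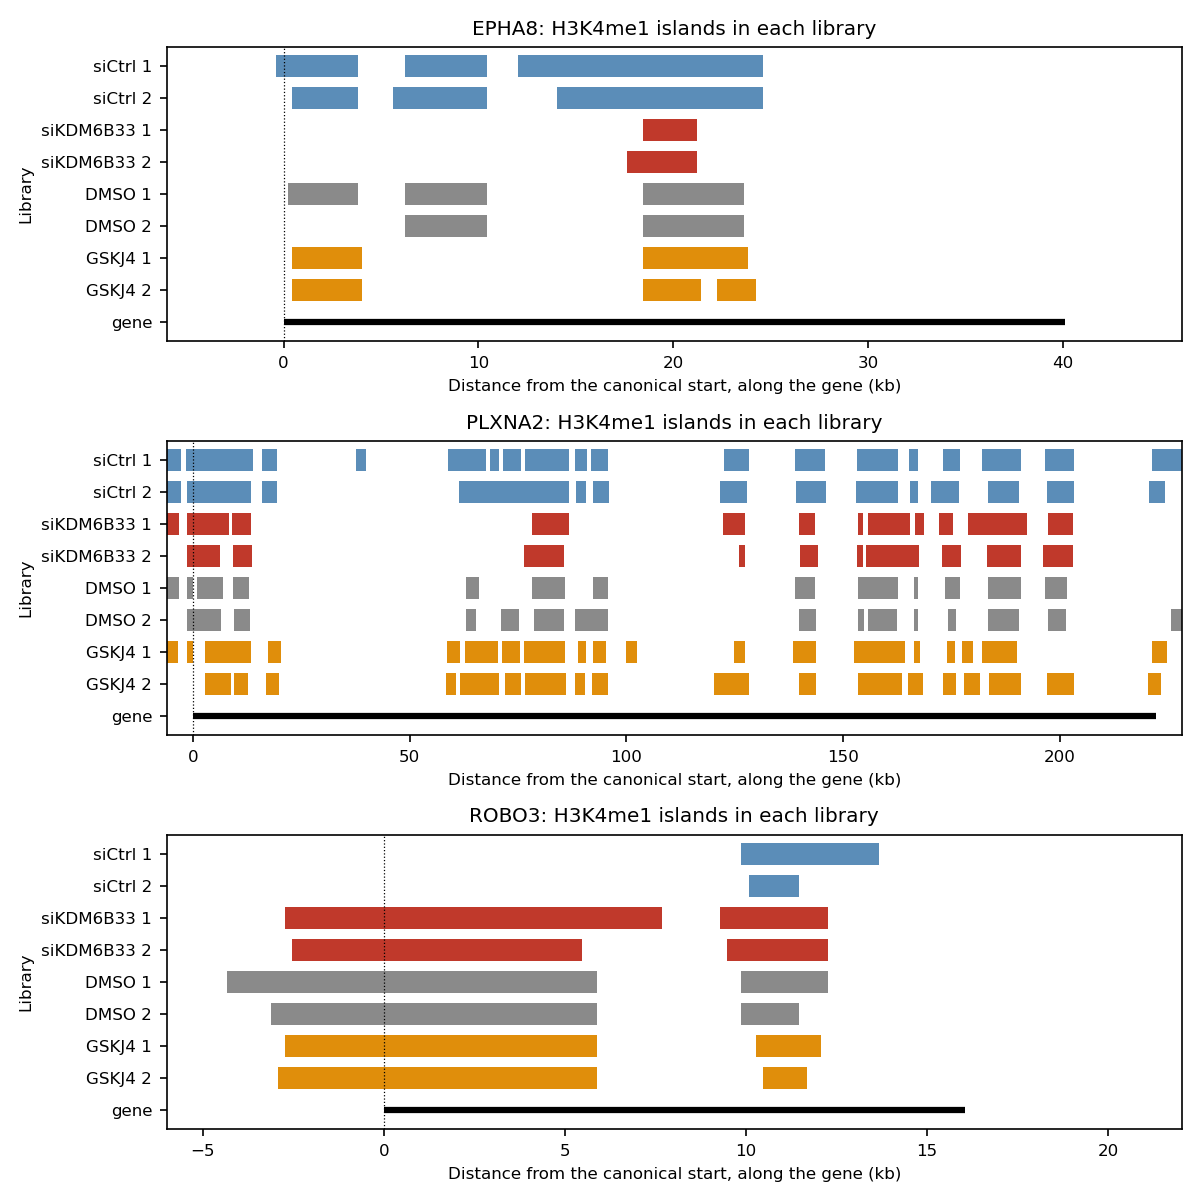
H3K4me1 islands of each library along EPHA8, PLXNA2 and ROBO3, with distance from the canonical start in kb and the gene as a black line. On EPHA8 the siKDM6B33 libraries keep 1 island of 2.8 and 3.6 kb where siCtrl has 3, on PLXNA2 they have 12 and 10 where siCtrl has 18 and 14, and on ROBO3 siCtrl has 1 island of 3.8 and 1.4 kb where the other libraries have 2.

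After GSKJ4, H3K4me1 coverage was higher in 9 members and lower in 11, where 10.3% and 7.99% of genes were. Limma called 0 members and 0 of 9042 genes (0%), with 5 of 37 members (13.5%) and 15.8% of genes at an unadjusted p under 0.05. The largest differences were in PLXNA2, at 25.0% and 25.9% in DMSO and 36.8% and 39.5% in GSKJ4 libraries (limma adjusted p = 0.147), and in the flank of EPHA1, at 0% in both DMSO and 12.7% in both GSKJ4 libraries (limma adjusted p = 0.0647). Over the whole window PLXNA1, PLXNA4 and NRP2 were also higher without overlap, and EFNA4, EPHA2, EPHA8 and ROBO3 lower. EFNA4 was at 62.0% and 60.7% against 49.3% and 54.4%. EPHA2 was at 28.8% and 21.1% against 16.3% in both. Limma called 1 member without DMSO replicate 1 (0 genes higher, 335 lower) and 2 without DMSO replicate 2 (62 genes higher, 690 lower).

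By role, 8 receptors were higher and 10 lower, and among ligands SEMA3C was higher and EFNA4 lower. ROBO2 was the 1 member that had an H3K4me1 start island in both DMSO libraries and neither GSKJ4 library, which is the share of all genes too (2.22% and 2.23%), and none gained one (0.588% of all genes). Near starts the counts were taken apart as well. Within 1 kb of a start 1 member, EPHB3, was higher and 9 lower, where 2.04% and 5.04% of genes with a start were, and in the rest of the window 9 were higher and 9 lower, where 10.7% and 6.57% of genes were. PLXNA1 was at 97.9% and 100% near its start in DMSO and 7.90% in both GSKJ4 libraries, and PLXNA4 at 37.9% and 58.6% against 11.8% and 0%, although both were higher over the whole window. PLXNA2 was at 60.02% and 100% near its starts in DMSO and 56.4% and 0% in GSKJ4 libraries. In all, the members held 60.04 and 50.28 kb of H3K4me1 near starts in DMSO and 41.86 and 40.26 kb in GSKJ4 libraries. Narrow peaks were higher in 5 members and lower in 2, where 10.8% and 6.68% of genes were, and limma called 0 members and 0 genes (0%), with 5 of 43 members (11.6%) and 10.9% of genes at an unadjusted p under 0.05. At an equal number of peaks these counts were 2 and 4, and the shares of all genes 7.73% and 8.53%. The direction turned with the DMSO library left out: 22 members were higher and 3 lower without DMSO replicate 1 (22.9% and 13.7% of genes), and 5 higher and 16 lower without DMSO replicate 2 (16.4% and 21.3%).

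Further genes of the pathway were counted in the same way, beside the 47.9% of all genes that limma called higher and the 6.88% it called lower. Of 34 other guidance ligands and receptors, limma called 9 of 29 with unequal values higher and 5 lower (31.0% and 17.2%) in H3K4me1 after knockdown. Of 36 intracellular guidance effectors, which relay receptor signals to the cytoskeleton, it called 20 of 32 higher and 2 lower (62.5% and 6.25%). Without overlap, 61.1% of the effectors and 46.4% of all genes were higher. How these lists differ from the members was not tested. In H3K27me3 after knockdown it called 0 in each list, with 2 of 17 other guidance genes and 2 of 11 effectors at an unadjusted p under 0.05, where 24.3% of genes were.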

How the data were processed

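CUT&Tag libraries of H3K27me3 and H3K4me1 from BE2C cells were analysed in the 8 groups of 2 that the sample titles give. The study describes the replicates as biological. The authors trimmed reads with Trim Galore 0.4.4, aligned them to hg19 with BWA 0.7.12, removed duplicates with Picard 1.65 and used SAMtools 1.3.1 and bedtools 2.25.0, per the submitters' processing notes. The authors called islands with SICER 1.1 in each library, and the deposited island score grows with width and depth. The authors called narrow peaks with MACS2 in each library (version 2.1.1 in the processing notes, another in the methods), and the deposited lists give a fold enrichment ratio and −log10 p-values and q-values. Library depth was not given in these files, and spike-in scaling is not part of the lists, so coverage moves with depth and with the caller's thresholds.

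Here each protein-coding gene of the GENCODE annotation (15 duplicate-symbol rows dropped) was given a window of its body with 5 kb on each side. Coverage in percent and log2(peaks + 1) were tested with limma 3.58.1 (R 4.3.3, trended empirical Bayes) on the 4 libraries of a comparison, for genes whose values were not all equal, with Benjamini-Hochberg adjustment over all genes at 0.05. A start was called when an island lay within 1 kb of it. Named genes were the 8 higher and 4 lower members of largest difference per mark and comparison, the 8 of highest mean coverage, those with no island, those past limma, KDM6B and the cell type markers, of which 1 is not reported here. Members and lists were chosen with earlier results of these data known. Alternatives were a window without flank, islands of at least 2 kb, equal covered length, island number or peak number per library, a −log10 q of at least 5, an arcsine scale, filters on low values, a pseudocount of 0.5, leaving out each library and a replicate block.

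The limma step was tested on simulated data. For coverage it recovered nearly all of the large changes and almost none of the small ones. For narrow peaks the first simulation recovered none of its changed genes at either of its fold sizes. Larger folds were then added, with the fit unchanged, and most of the largest were recovered, but few of the smaller. The absence of peak calls therefore says little about whether peaks changed. Coordinates and sequence are hg19. Python 3.11.15, pandas 2.3.3, numpy 2.4.6, scipy 1.17.1 and matplotlib 3.10.9 were used.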

Additional observations from a re-analysis of the deposited data

How the results depend on the processing

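Counts of members refer to groups that do not overlap unless limma is named, and shares in parentheses are of all genes at the same setting. Of 88 counts under settings other than leaving out a library, 62 stayed within 1.5 times the value reported and 26 did not. In H3K27me3 after knockdown, limma calls in coverage (1) became 2 on the arcsine scale, 2 with a mean coverage of at least 5% and 2 at equal covered length, the last both lower. Peaks became 0 higher at an equal number of peaks (5.53%), 1 lower without the flank (2.92%), and 2 higher and 1 lower at a −log10 q of at least 5 (2.86% and 2.16%). In H3K27me3 after GSKJ4, coverage became 6 higher at equal covered length (2.85%), and 4 higher and 10 lower at an equal number of islands (2.42% and 5.29%), where EFNA4 reversed to -6.95 points. Peaks became 1 lower without the flank (1.81%), and 10 higher and 2 lower both at an equal number of peaks (6.44% and 6.09%) and at a −log10 q of at least 5 (4.15% and 1.26%). In H3K4me1 after knockdown, peaks became 7 lower at a −log10 q of at least 5 (5.24%) and limma calls 4 at an equal number of peaks. In H3K4me1 after GSKJ4, limma calls in coverage became 1 on the arcsine scale, and peaks became 8 higher without the flank (9.44%), 2 higher and 4 lower at an equal number of peaks (7.73% and 8.53%), and 1 higher and 7 lower at a −log10 q of at least 5 (3.09% and 4.70%). The cause was not tested in any of these. Of 360 differences of single named members, 292 moved by less than 1 SD of the replicates, 67 moved by more and 1 reversed.

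Leaving out 1 library at a time kept 48 of 96 counts within 1.5 times the value reported, and with fewer libraries the groups overlap less by construction. In H3K27me3 after knockdown, 7 to 9 members were then higher and 5 to 8 lower in coverage (12.5% to 14.1% and 5.32% to 6.06%), with 0 to 2 limma calls, and 9 to 15 were higher and 3 to 7 lower in peaks (15.7% to 22.5% and 7.6% to 12.7%), with 0 to 5 calls. In H3K27me3 after GSKJ4, 12 to 18 members were then higher and 8 to 12 lower in coverage (7.85% to 17.3% and 5.44% to 11.4%), with 0 to 11 limma calls, and 20 to 31 were higher and 2 to 4 lower in peaks (21.7% to 38.2% and 4.35% to 9.24%), with 0 to 6 calls. In H3K4me1 after knockdown, 21 to 23 members were then higher and 15 to 17 lower in coverage (48.9% to 50.5% and 11.6% to 12.3%), with 2 to 11 limma calls, and 17 to 18 were higher and 13 to 18 lower in peaks (43.0% to 44.6% and 14.6% to 17.7%), with 5 calls each time. In H3K4me1 after GSKJ4, 11 to 14 members were then higher and 13 to 17 lower in coverage (12.6% to 16.9% and 11.8% to 17.3%), with 0 to 2 limma calls, and 5 to 22 were higher and 3 to 16 lower in peaks (16.4% to 22.9% and 13.7% to 21.3%), with 0 to 1 calls. The last ranges join opposite results, 22 higher and 3 lower without DMSO replicate 1 and 5 higher and 16 lower without DMSO replicate 2.

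The replicate numbers were not shown to pair the libraries: deviations of same-numbered libraries from their group means correlated between -0.042 and 0.069 across genes in the 8 fits, and the labels do not say what a number marks. With the replicate block, limma calls in coverage fell from 1 to 0 in H3K27me3 and from 22 to 11 (6 higher, 5 lower) in H3K4me1 after knockdown, and those in peaks from 9 to 0 in H3K4me1. No other count of limma calls changed under the block. Leaving 1 library in a group assumes that it varies like the rest. Of 247 tests of single called members under other settings, 125 kept their call and 122 lost it. Fits rest on 2 libraries a group, and many calls on equal replicates, so they describe these libraries with little margin.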
